A study of Homo sapiens with 11 samples.

Results

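Cytosolic ribosomal proteins were represented by 54 genes and 87 probes among the 14941 named genes and 22464 probes of the array. They were chosen by symbol alone: RPL or RPS followed by digits and an optional A, X or L, RPLP followed by a digit, or RPSA. Of the 54 genes, 33 code for large subunit proteins (50 probes) and 21 for small subunit proteins (37 probes). RPL5 and RPS9 had 17 probes each and RPL22 had 2, and every other gene had 1. The rule found no probe for RPLP0, RPLP1, RPL3, RPSA or RPS27A, so the acidic stalk of the large subunit was represented by RPLP2 alone. Each gene is described by its probe with the highest mean, and the repeated probes are described separately.

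The cells were RT4, an established human line derived from a bladder papilloma. In 2 arrays the cells had grown on plastic. In the other 9 they had been moved from plastic onto Matrigel, a cancer-derived basement membrane gel called crECM here, and harvested after 12 hours (12 h) or after 1, 2, 3, 4, 6, 7, 8 or 9 days, with a single array for each time. RT4 is 1 line, so values hold for these cultures only. The labels do not say whether the plastic arrays came from separate cultures, so a p-value measures the spread between arrays, which may be technical. The 9 crECM arrays are different times, so in the comparison with plastic their spread holds time as well as error.

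The ribosome is built from ribosomal RNA and a fixed set of proteins, and its small subunit reads the mRNA while its large subunit joins amino acids. Ribosomal protein mRNAs are among the most abundant in growing cells. Most of them start with a C followed by a run of pyrimidines, the 5' terminal oligopyrimidine tract, through which mTOR signaling and LARP1 control their translation and stability. RPL5 and RPL11 also bind MDM2 when ribosome assembly is disturbed. RPL3L, RPL10L, RPL39L and RPS27L are close relatives of RPL3, RPL10, RPL39 and RPS27: RPL3L is known from heart and skeletal muscle, RPL10L and RPL39L from testis, and RPS27L as a p53 target.

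The start of the gene is the feature that most members share outside their symbol. RefSeq starts of GRCh38.p14 were held for 47 of the 54 members, and 35 of these (74.5%) had at least 1 start with a C followed by 4 or more letters that are all C or T on the sense strand. The same letters stood at a start of 1404 of 27305 genes (5.14%). The tracts were 5 to 19 bases long. The lines below give 10 bases before and 20 after the start of members that the results turn on, with the tract at the start in capitals. RPL18 and RPL24 are shown because they were called lower at 12 h, RPL39, RPL14, RPL13A, RPS16 and RPL22 because they differed between crECM and plastic, RPS6 and RPS9 as small subunit examples, and the relatives RPS27L and RPL10L because no tract was found at their start.
RPL18: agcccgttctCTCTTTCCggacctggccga
RPL24: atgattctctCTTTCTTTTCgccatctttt
RPL39: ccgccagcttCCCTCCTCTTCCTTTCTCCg
RPL14: ggtcttcttcCTTCTCgcctaacgccgcca
RPL13A: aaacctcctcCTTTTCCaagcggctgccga
RPS16: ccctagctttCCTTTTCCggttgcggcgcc
RPL22: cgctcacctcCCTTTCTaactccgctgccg
RPS6: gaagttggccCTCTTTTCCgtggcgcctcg
RPS9: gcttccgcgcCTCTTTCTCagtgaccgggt
RPS27L: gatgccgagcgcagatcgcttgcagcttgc
RPL10L: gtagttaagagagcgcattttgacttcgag

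In the order printed these windows lie at chr19:48619159-48619188 on the minus strand, chr3:101686699-101686728 on the minus strand, chrX:119791611-119791640 on the minus strand, chr3:40457329-40457358 on the plus strand, chr19:49487598-49487627 on the plus strand, chr19:39435930-39435959 on the minus strand, chr1:6199576-6199605 on the minus strand, chr9:19380217-19380246 on the minus strand, chr19:54200848-54200877 on the plus strand, chr15:63157458-63157487 on the minus strand and chr14:46651762-46651791 on the minus strand. Each holds promoter bases followed by the first transcribed bases. The starts are annotated ones, so a missing tract says only that these letters are not at the annotated start. RPL32, RPL10A, RPL27 and RPS7 were among the 12 members without a tract, RPL32 at none of its 3 annotated starts.

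Values are in SD of the noise peak above zero (noise SD), the antilog of the deposited log10 values, and values under 3 SD count as not above noise. On any array 50 to 54 of the 54 members lay above 3 SD. Probes with a mean of at least 100 SD numbered 172 on the whole array, and 41 of them belonged to members, which made up 26 genes, 13 of each subunit. All 26 had an NM accession in the probe table, while the 10 members represented by another kind of accession all had means under 100 SD. Brightness depends on the probe as well as on the mRNA, so these levels were not compared between genes. RPL17, RPL8, RPL19 and RPS3 had means under 10 SD although their proteins are part of every ribosome. The line was checked on its markers: KRT7, KRT18 and KRT19 read 68.5 to 527 SD on the 11 arrays, and UPK1A and UPK2 16.1 to 30.3 SD. Of 14 markers of urothelium and epithelium, 9 were above 5 SD on all 11 arrays. The other 5 were UPK3A (above 5 SD on 6 arrays), PSCA (on 9, none of them plastic), KRT20 (on 2), UPK1B (on 1) and KRT13 (on 1). Probes of PTPRC and CD14, genes of leukocytes, also read 17.6 to 34.0 SD on the 11 arrays, as many members did. CD3E, another leukocyte gene, read 5.09 to 5.31 SD on plastic and 26.8 to 37.0 SD on crECM. Of 5 fibroblast markers 3, and of 3 endothelial markers 1, were above 5 SD on all 11 arrays. A probe above 5 SD thus does not alone name a cell type here.

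**Figure D1:**
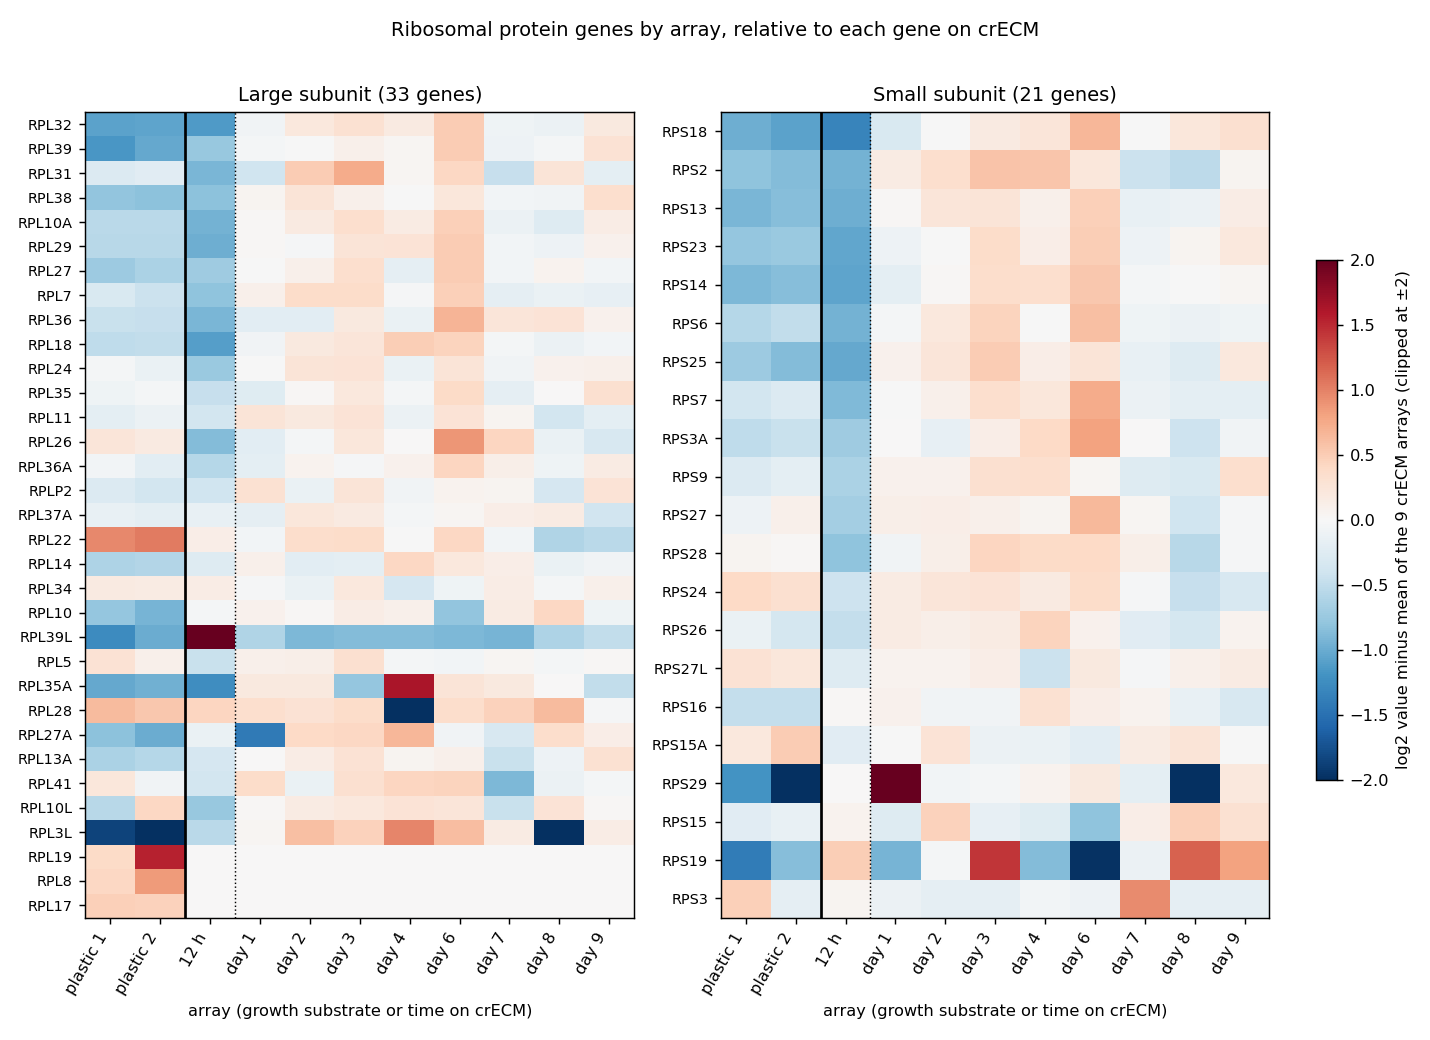
Heat map of the 54 genes (rows, by subunit and falling mean) on the 11 arrays (columns, 2 plastic arrays left of the solid line). Color gives the log2 value with a floor of 3 SD minus the mean of the 9 crECM arrays, clipped at 2 in either direction. The 12 h column is blue in most rows. Single cells stand out, among them RPL39L at 12 h, RPS29 on day 1 and RPL28 on day 4. Others are RPL3L and RPS29 on day 8 and RPS19 on day 6.

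The array at 12 h was compared with the other 8 crECM arrays to ask whether the ribosomal protein mRNAs had reached their later level by then. Of the 54 members, 33 had their lowest crECM value at 12 h, against 17.4% of the 21480 probes tested. These were 19 of 33 large and 14 of 21 small subunit genes. RPL39L alone had its highest crECM value at 12 h, against 20.3% of all probes. The median difference was -0.53 on the log2 scale for the large and -0.77 for the small subunit, and 0.00 over all probes. In bulk RNA, fewer cells of a kind and less RNA per cell cannot be told apart.

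The difference was largest in size among the bright members. The 26 genes with means of at least 100 SD had a median of 126 SD at 12 h, between 220 and 332 SD on days 1 to 9, and 155 and 156 SD on plastic. All 26 were below their mean of the other crECM days, by 0.41 to 1.48 on the log2 scale with a median of -1.01, and 24 had their lowest crECM value there. RPL11 and RPS24 were the exceptions, with a slightly lower value on day 8. In 23 of the 26 the value at 12 h also lay below both plastic arrays, as it did in 39 of 56 other genes as bright.

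Other bright genes moved in the same direction at 12 h. The 56 other named genes with a probe at or above 100 SD had a median difference of -0.64, from -1.64 to 0.69, and 29 of them had their lowest crECM value at 12 h. Raw intensities were put in noise SD above the noise peak and taken to log10, with no regression. The slope of deposited values on these, over probes above 3 SD on all arrays, was 0.920 at 12 h and 0.893 on day 7. On the other crECM arrays it was 1.08 to 1.16. The part of array scaling in the 12 h difference was not tested beyond the alternatives given here. Within each array the raw intensity rank, which no rescaling of an array changes, had a median percentile of 99.35 for the 26 genes at 12 h and between 99.53 and 99.83 on days 1 to 9. Of the 26 genes, 24 had their lowest rank on crECM at 12 h, and so had 31 of the 56 other bright genes. After quantile normalization the medians were -0.50 and -0.62 for all members tested of the large and small subunit. The 26 bright members then had a median of -0.71, and 130 other bright probes had -0.35.

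**Figure D2:**
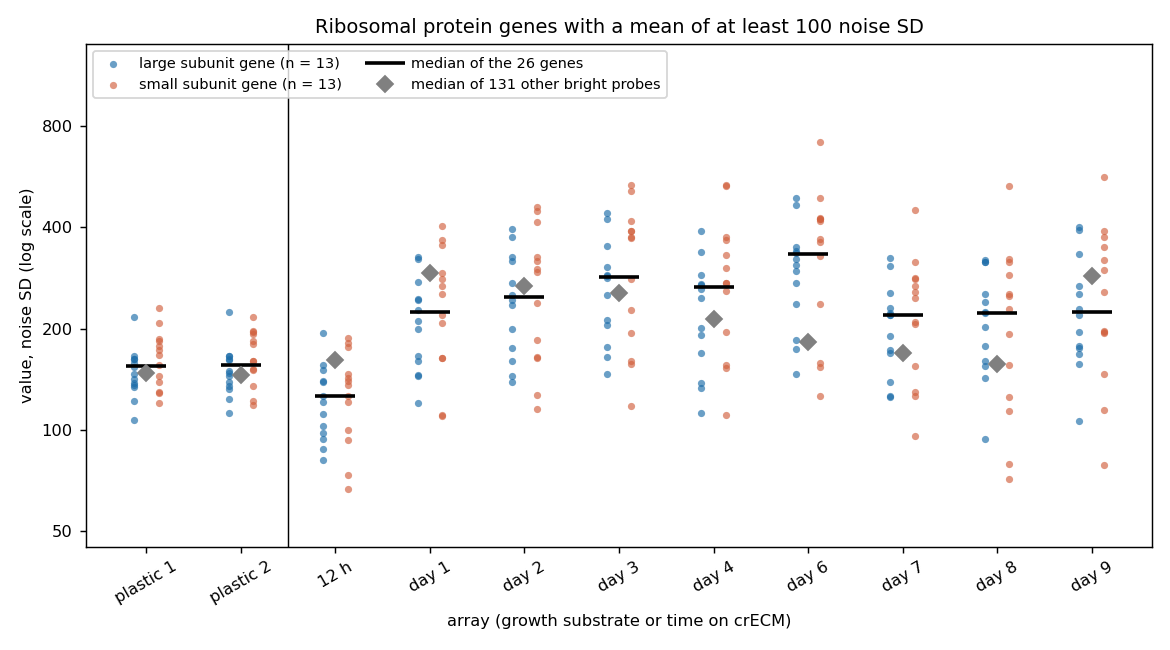
Values in noise SD (log scale) of the 26 genes with a mean of at least 100 SD on each array, large subunit in blue and small subunit in orange, with their median (bar) and the median of the 131 other probes as bright (diamond). The members' median is 126 SD at 12 h and 220 to 332 SD on days 1 to 9, while the other probes have 161 SD at 12 h and 157 to 293 SD later.

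By limma, 2 members were lower at 12 h at an adjusted p under 0.05 (3.70% of the members, against 2.69% of all probes) and 1 was higher (1.85%, against 3.54%). The share called lower was near the background. At an unadjusted p under 0.05, limma gave 12 lower large and 8 lower small subunit genes (37.0% of the members, against 9.42% of all probes), with no small subunit gene called after adjustment. RPL18, a protein of the large subunit, read 81.3 SD at 12 h and between 161 and 246 SD on days 1 to 9 (median 184), and 122 and 123 SD on plastic. Its 12 h value lay under all others, 2.35-fold below the mean of the later days (log2 difference -1.24, SE 0.26, adjusted p = 0.030 by limma). RPL24, which forms a bridge between the subunits, read 87.4 SD at 12 h and between 133 and 176 SD on days 1 to 9 (median 156), and 142 and 133 SD on plastic. It was 1.78-fold lower at 12 h (log2 difference -0.83, SE 0.17, adjusted p = 0.028 by limma). Without day 2 or without day 3 the adjusted p of RPL18 was 0.059 or 0.054, and that of RPL24 was 0.076 to 0.14 with the 2 sets of rebuilt values and with quantile normalization.

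Among the small subunit, RPS6, the substrate of the S6 kinases, read 142 SD at 12 h and between 253 and 417 SD on days 1 to 9 (median 270), against 184 and 195 SD on plastic. Its 12 h value was the lowest of the 11 (log2 difference from the later days -1.06, SE 0.39, adjusted p = 0.18). RPS18, at the head of the small subunit, read 181 SD at 12 h and 368 to 718 SD afterwards (median 522), with 231 and 216 SD on plastic. All values after 12 h lay above the other 3 arrays. The log2 difference at 12 h was the lowest of the 54 members but did not pass the test (-1.48, SE 1.20, adjusted p = 0.60). RPL32 read 156 SD at 12 h and 315 to 490 SD later (median 391), and 163 and 166 SD on plastic, a difference of -1.28 (SE 0.57, adjusted p = 0.27). RPL35A read 11.5 SD at 12 h and 15.8 to 83.9 SD later (median 31.0), with its highest value on day 4 and 13.3 and 13.9 SD on plastic. The 12 h value was again the lowest of the 11. Its 12 h difference was -1.39 (SE 0.70, adjusted p = 0.34).

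RPL11 and RPL5, whose proteins bind MDM2, were not called at 12 h on the probes used here, the single one for RPL11 and the brightest of 17 for RPL5. RPL11 read 94.2 SD at 12 h and 93.9 to 147 SD later (median 133), with 107 and 112 SD on plastic. RPL5 read 19.4 SD at 12 h and 25.7 to 33.1 SD later (median 27.1), with 32.3 and 28.5 SD on plastic, so its 12 h value lay below the other 10 arrays (log2 difference from the later days -0.51, SE 0.13, adjusted p = 0.068). RPLP2, of the stalk that recruits elongation factors, read 73.6 SD at 12 h and 77.0 to 119 SD later (median 101), with 80.5 and 74.9 SD on plastic. RPS27L read 56.7 SD at 12 h and 50.4 to 77.7 SD later (median 71.9), with 83.2 and 79.6 SD on plastic, where both values exceeded all crECM arrays. The test did not call it in either comparison. RPL10L read 8.60 SD at 12 h and 10.7 to 17.5 SD later (median 16.5), with 9.88 and 19.4 SD on plastic, a wide gap between those 2 arrays.

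RPL39L was the member that went the other way at 12 h. It read 2403 SD at 12 h, between 17.4 and 23.4 SD on days 1 to 9 (median 18.1), and 13.8 and 16.5 SD on plastic. The raw intensity of 24339.5 at 12 h was the highest of all spots on that array. The difference was 124-fold (log2 difference 6.96, SE 0.17, adjusted p = 1.4e-08 by limma) and rests on 1 spot of 1 array. RPL39 itself, a close relative in sequence, had its lowest crECM value at 12 h. Days 1 to 9 also lay above both plastic values in RPL39L, and the change against plastic was not called (1.13, SE 1.54, adjusted p = 0.58). Whether the reading came from the RPL39L mRNA was not tested.

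**Figure D3:**
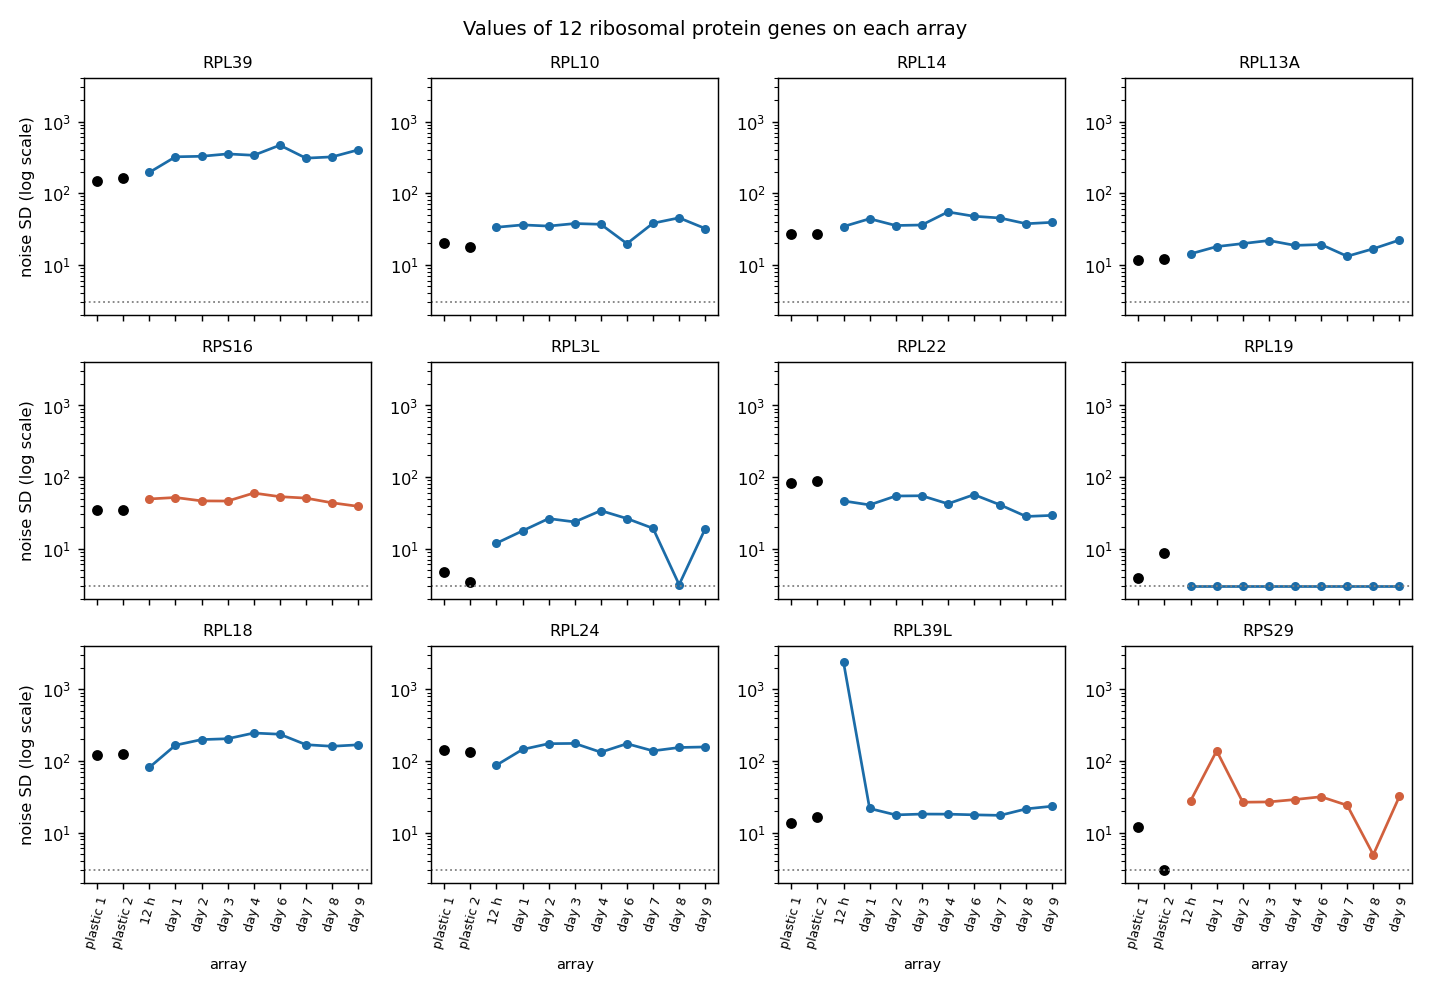
Values in noise SD (log scale) of 12 named members on the 2 plastic arrays (black) and the 9 crECM arrays (joined points, blue for the large and orange for the small subunit), with the floor of 3 SD as a dotted line. RPL39L reads 2403 SD at 12 h and 23.4 SD or less elsewhere, RPL22 is lower on every crECM array than on plastic, and RPL19 is at the floor on all crECM arrays.

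On some of the later days the bright members lay on the same side of their mean, and on others they were split. On day 3 and on day 6 all 26 bright members were above their mean of the other crECM arrays, with medians of 0.32 and 0.54 on the log2 scale. The 56 other bright genes had medians of 0.31 on day 3 and 0.02 on day 6. All 131 other bright probes, with or without a gene name, had medians of 0.37 and -0.40 on these days. On day 2, 20 of the 26 were above their mean of the other crECM arrays, on day 4 there were 18, on day 9 there were 15 and on day 1 there were 12. Their medians on days 2, 4, 9 and 1 were 0.17, 0.15, 0.07 and -0.01. The 56 other bright genes had medians of 0.12, 0.20, 0.33 and 0.34 on the same days. On day 7, 21 of the 26 were below (median -0.09), and on day 8, 19 of the 26 (median -0.13), and the other bright genes had medians of -0.27 and -0.33. No member had a slope over the days that passed limma's adjusted p of 0.05, as against 0.00466% of all probes (1 of 21480). At an unadjusted p under 0.05, 4 members had a slope (7.41%, against 8.47% of all probes), 3 rising and 1 falling. This share depended on the scaling. With quantile normalization 14 of 50 members rose and 1 fell at that unadjusted p, against 3.76% and 4.26% of all probes. No member passed after adjustment there either. With the deposited values of all crECM arrays, the slopes per doubling of the day ran from -1.12 for RPL39L to 0.33 for RPS18. The median slope was 0.09 for the large and 0.08 for the small subunit, with the 12 h array included. RPL36, of the large subunit, had the lowest adjusted p (slope 0.26, adjusted p = 0.47). It read 98.2 SD at 12 h and 160, 160, 211, 170, 297, 220, 224 and 196 SD on the days that followed, and 136 and 135 SD on plastic. RPS14 and RPS23 had slopes of 0.22 each (adjusted p = 0.69 and 0.70).

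Single arrays set the pattern of a few dim members. RPS29 read 139 SD on day 1, 4.90 SD on day 8 and 24.0 to 32.0 SD on the other crECM arrays, against 12.1 and 2.05 SD on plastic. RPL28 read 0.127 SD on day 4 and 21.0 to 33.1 SD on the other 8 crECM arrays, with 33.1 and 31.2 SD on plastic. RPS19, a protein mutated in Diamond-Blackfan anemia, read 0.235 SD on day 6 and up to 31.7 SD, on day 3, with 4.47 and 6.53 SD on plastic. RPS3 lay between 1.69 and 6.57 SD on crECM and at 4.71 and 0.675 SD on plastic. These readings come from 1 spot each and were not repeated on the array.

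Between crECM and plastic, 6 members were higher (11.1%, against 22.8% of all probes) and 4 were lower (7.41%, against 22.4%) at an adjusted p under 0.05 by limma. In 5 members all 9 crECM values lay above both plastic values (against 20.8% of all probes), and in 5 they all lay below (against 24.4%). Both shares of members were under the background. The median change was 0.32 for the large and 0.48 for the small subunit on the log2 scale, against 0.06 over all probes. With rebuilt values the medians became 0.09 and 0.07 where that of all probes was 0.42, and with quantile normalization -0.01 and -0.07. The direction of the members as a group against all probes therefore depended on the scaling. The plastic arrays had slopes of deposited values on raw values in log10 noise SD of 0.661 and 0.628, outside the crECM range. The substrate and the handling of the arrays cannot be told apart.

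The 6 higher genes were RPL3L, RPL39, RPL10, RPL14, RPL13A and RPS16. RPL39, a small protein of the exit tunnel, read 147 and 161 SD on plastic, 195 SD at 12 h and 308 to 467 SD on days 1 to 9 (median 332). All crECM values lay above plastic, 2.14-fold on the mean (log2 change 1.10, SE 0.37, adjusted p = 0.032). With rebuilt values the change of RPL39 was 0.48 (adjusted p = 0.17) and with quantile normalization 0.41 (adjusted p = 0.29), so its call depended on the scaling. RPL10, which completes the large subunit late in its assembly, read 20.0 and 17.9 SD on plastic and 19.7 to 45.1 SD on crECM (median 35.9), with day 6 alone in the plastic range (0.85, SE 0.23, adjusted p = 0.010). RPL14 read 26.5 and 27.2 SD on plastic and 34.1 to 54.5 SD on crECM (median 39.0), without overlap (0.61, SE 0.16, adjusted p = 0.0093).

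RPL13A, also known from the GAIT complex that silences inflammatory mRNAs, read 11.5 and 12.0 SD on plastic and 13.1 to 22.1 SD on crECM (median 18.6), again without overlap (0.60, SE 0.21, adjusted p = 0.034). With quantile normalization RPL13A had a change of 0.11 (adjusted p = 0.62). RPS16, the single small subunit gene called in this comparison, read 34.9 SD on both plastic arrays and 39.0 to 59.7 SD on crECM (median 49.4, log2 change 0.48, SE 0.13, adjusted p = 0.0094). RPL3L, the muscle relative of RPL3, read 4.77 and 3.46 SD on plastic, 3.13 SD on day 8 and 11.9 to 33.9 SD on the other crECM arrays, a 4.24-fold difference close to the noise (2.08, SE 0.69, adjusted p = 0.029). RPS29 had a larger change that did not pass (2.20, SE 0.87, adjusted p = 0.060). Without plastic replicate 1 or without plastic replicate 2 limma called none of the 6 (9.26% and 7.41% of members were higher at an unadjusted p under 0.05, against 20.9% and 18.8% of all probes), and without the 12 h array 16 members were called higher (29.6%, against 25.4% of all probes).

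The 4 lower genes were RPL22, RPL19, RPL8 and RPL17, all of the large subunit. RPL22, an RNA-binding protein that the ribosome can lack, read 83.1 and 87.2 SD on plastic and 28.1 to 56.8 SD on crECM (median 42.3). Each crECM value lay below both plastic values, 2.00-fold on the mean (log2 change -1.002, SE 0.25, adjusted p = 0.0071). Its other probe read 47.9 and 48.1 SD on plastic and 18.3 to 32.7 SD on crECM (-0.89, SE 0.18, adjusted p = 0.0024). On day 8 and day 9 the first probe was lowest, at 28.1 and 29.1 SD. Without either plastic array the adjusted p of RPL22 was 0.062 or 0.086, with the change at -1.04 or -0.97, and without regression it was -0.39 (adjusted p = 0.10).

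The other 3 lower genes were near the noise. RPL19 read 3.92 and 8.76 SD on plastic, RPL8 4.02 and 5.39 SD, and RPL17 4.15 SD on both arrays. On crECM no value of the 3 genes was above 1.16 SD. They were thus at least 1.95-fold, 1.55-fold and 1.38-fold lower, with adjusted p of 0.0021, 7.7e-05 and 1.9e-06. A group at the floor has no spread, which makes its p small. RPL19 rested on plastic replicate 2, with a log2 change of -0.39 without it, -1.55 without plastic replicate 1 and -0.40 with a floor of 5 SD. With that floor, RPL17 had no change and RPL8 was not called (adjusted p = 0.11).

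**Figure D4:**
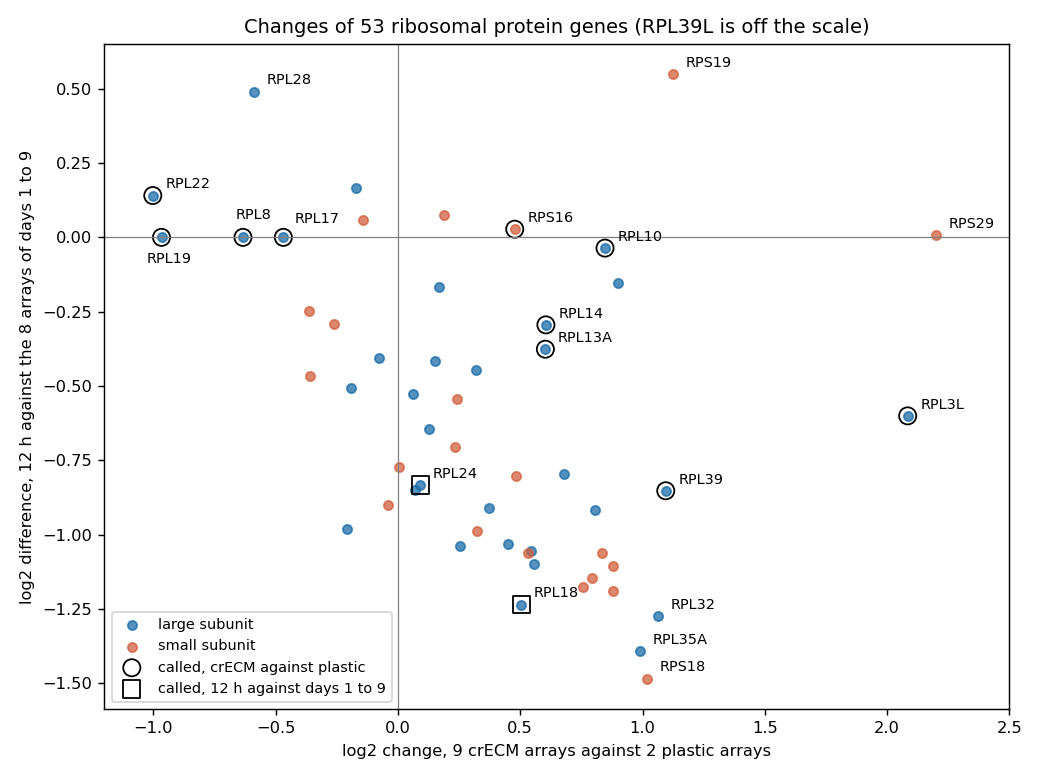
The log2 change between crECM and plastic (horizontal) and the log2 difference of the 12 h array from days 1 to 9 (vertical) for 53 members, blue for the large and orange for the small subunit. Circles mark the 10 genes called against plastic and squares the 2 called lower at 12 h. The 12 h array enters both axes, so the 2 values of a gene are not independent.

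The repeated probes show the spread within an array. Their sequences were not used, so differences between probes and error cannot be told apart in it. For RPS9, 16 of the 17 probes were above 3 SD on all arrays, and their SD on the log2 scale was between 0.04 on day 7 and 0.28 on day 1. Their median was 74.3 SD at 12 h, between 118 and 170 SD on days 1 to 9, and 126 and 122 SD on plastic. All 16 were lower at 12 h than the mean of later days, by 0.53 to 1.07 on the log2 scale, and 8 of them passed an adjusted p of 0.05. The probe described above, chosen as the brightest, was among those that did not pass (-0.70, adjusted p = 0.19). Against plastic the 16 changes ran from -0.06 to 0.25 and 12 were positive. The remaining RPS9 probe was above noise on 2 arrays only.

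For RPL5, 10 of 17 probes were above 3 SD on all arrays, with an SD between 0.18 on day 3 and 0.62 on plastic replicate 2. Their median was 15.7 SD at 12 h and 22.4 to 29.6 SD on days 1 to 9, and 24.0 and 24.1 SD on plastic. All 10 were lower at 12 h, by 0.16 to 1.23 on the log2 scale, and 4 of them passed an adjusted p of 0.05, again without the probe described above. Against plastic their changes ran from -0.23 to 1.39, with 5 positive and 5 negative, so the direction of RPL5 depended on the probe. Of all 17 RPL5 probes, 7 passed an adjusted p of 0.05 against plastic, in both directions, as did 45.2% of all probes tested. The lower ones of the 7 were above 3 SD on the plastic arrays only. These probes share an array and an RNA sample and count as 1 replicate.

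**Figure D5:**
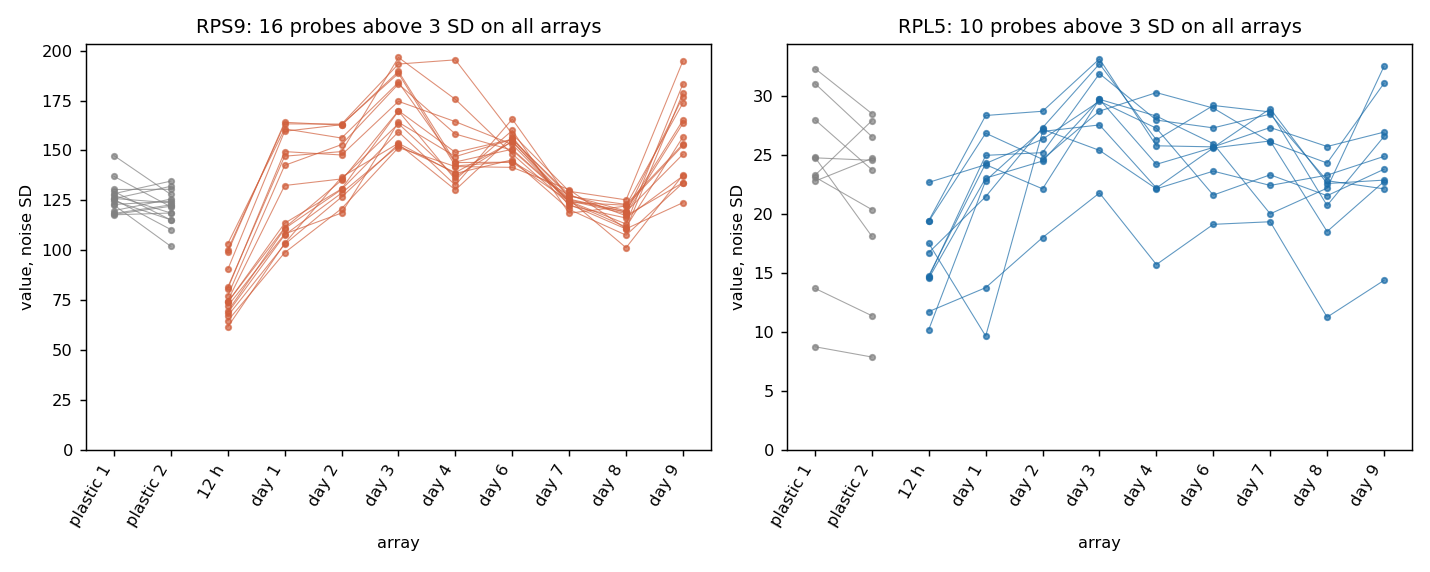
Values in noise SD of the 16 RPS9 probes (left) and 10 RPL5 probes (right) that were above 3 SD on all 11 arrays, 1 line for each probe, gray on plastic and colored on crECM. The RPS9 probes lie between 61.5 and 103 SD at 12 h and between 98.7 and 197 SD on the later days, and the RPL5 probes spread more widely in proportion.

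The large and small subunit moved in the same direction in both comparisons. Between 12 h and the later days the large subunit median exceeded the small by 0.25 on the log2 scale, and among the 13 bright genes of each the medians were -0.92 and -1.06. Against plastic the large subunit median was lower by 0.16. With values rebuilt from the raw intensities the 12 h difference between the subunits was -0.02 and the plastic difference 0.02, so neither kept its sign. On single arrays the large minus small difference of median log2 values was -0.68 and -0.85 on plastic, -0.84 at 12 h and -1.76 to -0.84 on days 1 to 9, which depends on the probes and is read only for its change. It was thus higher on plastic replicate 1 than on any crECM array, while plastic replicate 2 lay within the crECM range.

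Members with and without a pyrimidine tract at their start were set side by side. At 12 h the 35 with a tract had -0.70 and the 12 without had -0.67, and 22 of 35 and 7 of 12 had their lowest crECM value there. Against plastic the medians were 0.48 and 0.21. The groups also differed in level. Members with a tract had a median level of 119 SD, with 19 of them at 100 SD or more. Members without a tract had a median level of 78.0 SD, with 5 at 100 SD or more. Of 20 other genes known for such a tract, 2 were higher (10%) and 3 lower (15%) on crECM by limma. At 12 h limma called 1 higher and none lower, with a median of -0.18, and 6 had their lowest crECM value there. Their median level was 45.5 SD, with 4 at 100 SD or more. Level was not matched between these sets, and a part of the tract in their differences was not tested. EEF2, the translocation factor, read 111 SD at 12 h and 217 to 414 SD later (log2 difference -1.43, SE 0.40, adjusted p = 0.082), and TPT1 read 101 SD and 158 to 381 SD (-1.27, SE 0.48, adjusted p = 0.20). NAP1L1, a histone chaperone, was higher at 12 h, with 42.7 SD against 16.8 to 25.8 SD later (0.95, SE 0.20, adjusted p = 0.030). It was lower on crECM than on plastic (-0.93, SE 0.25, adjusted p = 0.010).

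Other gene groups of the ribosome were mostly on dimmer probes than the members. The 14 members with means from 10 SD to the midpoint of 10 and 100 SD on the log scale had a 12 h median of -0.09, against -0.02 for the other probes of that level, so the 12 h medians of these groups are not set against that of all members. Of 60 ribosome biogenesis genes tested, 15 were higher (25%) and 13 lower (21.7%) on crECM, near the 22.8% and 22.4% of all probes, and 2 were higher and 3 lower at 12 h (median -0.03). UTP3, of the small subunit processome, rose from 46.1 and 43.1 SD to between 81.8 and 105 SD (1.07, SE 0.10, adjusted p = 4.7e-06), and NOLC1, a nucleolar chaperone, fell from 44.1 and 44.4 SD to between 23.8 and 39.7 SD (-0.60, SE 0.17, adjusted p = 0.012). Of 31 genes of RNA polymerase I and III, 8 were higher (25.8%) and 4 lower (12.9%) on crECM, and 1 was higher and none lower at 12 h (median 0.00). POLR2H, a shared subunit of the polymerases, rose from 31.5 and 32.5 SD to between 51.0 and 81.7 SD, with its highest value at 12 h (0.89, SE 0.14, adjusted p = 4.9e-04). Of 63 mitochondrial ribosomal protein symbols tested, 13 were higher and 13 lower on crECM (20.6% each, near the share of all probes), and 1 was higher and 2 lower at 12 h (median 0.00). No probe of the polymerase or mitochondrial lists had a mean of 100 SD, and 1 of the biogenesis list had.

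Of 12 translation elongation and termination genes, 4 were higher (33.3%) and 2 lower (16.7%) on crECM, and EEF2K, the kinase that inhibits EEF2, was the 1 gene lower at 12 h, with 11.1 SD against 18.1 to 25.1 SD later (-0.99, SE 0.20, adjusted p = 0.024). Of 21 genes of mTOR and S6 kinase signaling, 9 were higher (42.9%, against 22.8% of all probes) and 2 lower (9.52%, against 22.4%) on crECM, and limma called none at 12 h (median -0.02). MTOR itself rose from 18.9 and 16.5 SD to between 25.2 and 33.1 SD (0.64, SE 0.11, adjusted p = 8.8e-04), and MYC from 14.6 and 9.55 SD to between 19.2 and 37.0 SD (1.29, SE 0.26, adjusted p = 0.0020). The 9 also held RPTOR (2.11, SE 0.20), TSC1 (2.02, SE 0.23) and TSC2 (0.61, SE 0.22), and no direction of signaling was read from the list. RPS6KA3, a kinase of the RSK family, fell from 57.5 and 61.7 SD to between 39.3 and 53.2 SD (-0.33, SE 0.11, adjusted p = 0.032). Of 9 genes of ribosome stress and p53, none was higher on crECM and MDM2 (11.1% of the list) fell, from 61.4 and 59.1 SD to between 31.2 and 46.9 SD (-0.65, SE 0.14, adjusted p = 0.0026). MDM4 was lower at 12 h, with 6.45 SD against 16.3 to 26.9 SD later (-1.74, SE 0.28, adjusted p = 0.010). Of 4 ribosomal protein relatives with other symbols, RSL1D1 was higher on crECM (0.51, SE 0.18, adjusted p = 0.038) and limma called none at 12 h.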

How the data were processed

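Each RT4 sample, from plastic or crECM, was read as Cy3 signal on 1 array of spotted oligonucleotides. The authors deposited raw intensity values per array and a table of log10 values. By the methods of the study, the authors divided intensities by the SD of the noise peak, took log10 and fitted arrays onto one another with a robust regression. Main values were the deposited log10 values on a log2 scale, with a floor of 3 SD. The raw intensity values served for rebuilt values with and without the regression, quantile normalization and ranks.

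Tests used limma 3.58.1 in R 4.3.3 (lmFit, eBayes with a trend), with Benjamini-Hochberg adjustment over the 21480 probes above 3 SD on at least 2 of 11 arrays. The comparisons were crECM against plastic, 12 h against the other 8 crECM arrays, and the slope on log2 of the day. At 12 h the lone array was assumed to vary like the others. The fit was tested on simulated data. Of 22464 probes, 17043 had 1 gene symbol, 172 several and 5249 none, and all 87 member probes matched a gene identifier of GRCh38.p14.

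The members and lists were chosen with earlier results of these data known, so they are not independent of them. Values were printed for members called in a comparison, the 3 highest and 3 lowest changes in each, a set with known roles, and up to 2 genes in each direction of other lists. Members singled out for 1 array were named after their values were seen, as was the level of 100 SD chosen. Gene starts were taken from RefSeq, GRCh38.p14. Python 3.11.15 with pandas 2.3.3 was used for counts. Probe sequences were not used here, nor were protein sequences.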

Additional observations from a re-analysis of the deposited data

Results flagged for a closer look

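Over the 9 crECM arrays, 54 members and the medians of the large and small subunit were examined for 1 array far from the others. The measure was the gap to the nearest other array divided by the whole range of log2 values, with the floor of 3 SD. RPL19, RPL8 and RPL17 were at the floor on all 9 arrays and could not be flagged, though they count among the 56. The gap share passed Dixon's 95% critical value for 9 arrays in 19 of the 56, where chance gives about 1 in 20, or 2.8. In 13 the low array was 12 h: RPL32 (gap share 0.615), RPL39 (0.524), RPL38 (0.650), RPL29 (0.586), RPL18 (0.615), RPL24 (0.597), RPL5 (0.522), RPS18 (0.514), RPS13 (0.572), RPS23 (0.607), RPS14 (0.538), RPS6 (0.536) and RPS25 (0.495). These genes share the 12 h array, so they are not 13 separate findings.

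In the other 6 different arrays stood apart. RPL39L was high at 12 h (gap share 0.940, 2403 SD) and RPS3 was high on day 7 (0.793, 6.57 SD). RPL10 was low on day 6 (0.586, 19.7 SD), RPL28 on day 4 (0.810, 0.127 SD), RPL27A on day 1 (0.526, 7.94 SD) and RPL3L on day 8 (0.560, 3.13 SD). Each rests on 1 probe of 1 array, and the cause was not tested. RPS3 and RPL28 had crECM values under 3 SD, so their gap shares depend on the floor.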

How the results depend on the processing

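The lower 12 h medians kept their direction under all alternatives run, and the medians against plastic did not. Against plastic, quantile normalization gave medians of -0.00566 (large) and -0.0708 (small). Rebuilt values gave 0.0698 (small), and without regression the large subunit gave 0.83. Relative to all probes, the main medians of 0.26 (large) and 0.42 (small) became -0.32 and -0.35 with rebuilt values, -0.47 and -0.79 without regression, and -0.00294 and -0.0681 with quantile normalization. The large minus small difference became 0.0235, 0.32 and 0.0652 in that order against plastic, and -0.0202, -0.0593 and 0.12 at 12 h. At 12 h the small subunit had -0.54 with rebuilt values, and relative to all probes -0.44 and, without regression, -0.24. The cause was not tested.

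Without regression, limma called 22 members higher on crECM (44.0%) and 0 lower (0 also at an unadjusted p under 0.05). Of all probes it called 16099 higher (82.4%) and 51 lower (0.261%). With rebuilt values 8292 of all probes were higher and 2279 lower, against 4901 and 4815 with the deposited values. These alternatives tested 50 of the 54 members. With quantile normalization 2 members were lower (4.0%, against 18.4% of all probes) and with a floor of 5 SD also 2 (3.7%, against 21.7%). Without regression 1 slope was called lower (2.0%, against 0.445% of all probes). With quantile normalization no slope of a member was called. At an unadjusted p under 0.05, 14 of 50 members then rose over the days (against 3.76% of all probes) and 1 fell (against 4.26%). With the deposited values 3 of 54 members rose and 1 fell at that p, and without the 12 h array 0 rose and 1 fell. Counting only genes with NM accessions and without RPL5, RPS9 and RPL39L, an alternative chosen after seeing the data, left 0 higher at 12 h, since RPL39L was the single one.

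Leaving out single arrays, 0 to 16 members were higher and 3 to 5 lower against plastic. Without plastic replicate 1 or 2, limma called 0 higher (5 or 4 at p under 0.05 with no adjustment). It called 16 once 12 h was left out (29.6%, against 25.4% of all probes). At 12 h 1 was higher and 1 to 3 lower, the 1 when day 2 was left out. The medians ran from 0.29 to 0.37 (large) and 0.38 to 0.50 (small) against plastic, and from -0.57 to -0.50 and -0.84 to -0.70 at 12 h. Relative to all probes they ran from 0.23 to 0.31 and 0.32 to 0.44 against plastic. The subunit difference ran from -0.21 to -0.07 and from 0.18 to 0.31. Among single genes the call of RPL39 was lost in 7 of 19 alternatives and that of RPL13A in 5. No paired analysis was possible because the 9 crECM arrays are time points and share no culture number with the plastic arrays. The number of arrays limits the precision, and probes under 3 SD have bounds only.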
